A study of Arabidopsis thaliana with 4 samples.

Results

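The plastid genome of Arabidopsis thaliana encodes part of the machinery that expresses it. The genes described here are 7 of that kind, 1 probe set each: rpoA, rpoB, rpoC1 and rpoC2, which encode the alpha, beta, beta' and beta'' core subunits of the plastid-encoded RNA polymerase, matK, which encodes an intron maturase, rpl20, which encodes a protein of the large ribosomal subunit, and accD, which encodes a carboxyltransferase subunit of plastid acetyl-CoA carboxylase. They were taken as the probe sets that name 1 gene, lie on the plastid genome and carry one of these symbols. They make up 7 of the 69 plastid-encoded probe sets that name 1 gene and 7 of 22810 probe sets in all.

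Leaf RNA was hybridised to 4 Affymetrix ATH1 arrays, 1 per sample. KO-nudx19 plants, which lack the NADPH hydrolase NUDX19, gave 2 arrays, and wild-type Col-0 plants gave 2. All plants spent 1 week on medium with 3% sucrose and then 2 weeks on soil, with 16 h of light a day at 100 µmol m−2 s−1, and rosette leaves were taken at 3 weeks. Arrays of each genotype are numbered 1 and 2, and the labels give neither the mutant allele nor the number of plants behind an array, so the p-values below reflect array-to-array spread alone, whose origin may be technical.

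Plastid genes are read by a pair of transcription systems. The plastid-encoded polymerase is a bacterial-type enzyme whose core comes from the rpo genes and whose promoter choice depends on sigma factors made in the nucleus, and it reads most photosynthesis genes. A phage-type polymerase encoded in the nucleus reads a small set of housekeeping genes, among them accD and the rpoB gene cluster, and thereby supplies the core of the plastid-encoded enzyme. Many plastid transcripts also need group II introns removed, in which matK takes part, and translation on bacterial-type ribosomes, to which rpl20 contributes. Acetyl-CoA carboxylase makes the malonyl-CoA from which plastids build fatty acids.

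The arrays themselves differed in ways that touch these genes. No probe set was named for NUDX19, so the knockout could not be checked against its own transcript. Each array had a trimmed mean signal of 200. All plastid-encoded probe sets together took 3.04% and 3.27% of the summed signal on KO-nudx19 replicates 1 and 2, and 3.16% and 1.74% on wild-type replicates 1 and 2. Wild-type replicate 2 thus stood apart in plastid signal. Poly(A) control transcripts added in the laboratory had geometric means of 98.2 and 21.0 on the KO-nudx19 arrays and 116 and 19.9 on the wild-type arrays, lower on both arrays numbered 2. Signal at the 3' end of the actin transcript over that at its 5' end, which tracks RNA quality, came to 2.92 and 5.17 in KO-nudx19 and 2.30 and 4.27 in wild type. The same ratio for GAPDH came to 0.99 and 1.38 in KO-nudx19 and 1.01 and 1.15 in wild type. For ubiquitin it came to 1.48 and 1.95 in KO-nudx19 and 1.53 and 1.44 in wild type, lowest on wild-type replicate 2. Hybridisation controls, added after labelling, had geometric means of 1054 and 1140 in KO-nudx19 and 620 and 411 in wild type, so they separated the genotypes and were lowest on wild-type replicate 2. A probe set for 25S ribosomal RNA had 971 and 856 in KO-nudx19 and 1781 and 748 in wild type. The part of these differences in the results below was not tested. In leaf tissue a lower plastid signal from fewer plastid-rich cells and one from less plastid RNA per cell cannot be told apart. Of 16 leaf mesophyll markers 5 had a named probe set, with signals from 6551 (PRK, wild-type replicate 1) to 19541 (RCA, KO-nudx19 replicate 2). All 5 were higher on both KO-nudx19 arrays than on both wild-type arrays, with a median log2 difference of 0.41, against 10.5% of all tested probe sets that were higher without overlap, and none passed limma's test. All 5 were also higher on wild-type replicate 2 than on wild-type replicate 1, for example RCA, which encodes Rubisco activase, with 13710 on replicate 2 and 11113 on replicate 1. The part of these markers in the results was not tested. The root marker PYK10 had 544 and 471 in KO-nudx19 and 607 and 794 in wild type.

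The question was whether plastid transcripts for gene expression and housekeeping differ when NUDX19 is absent. None of the members passed the test between the genotypes. The subunit genes of one polymerase did not share a profile, since rpoA stood apart from rpoC1 and rpoC2, while rpoB was too dim to be placed. On wild-type replicate 2, 4 of the 6 tested members, accD, rpl20, rpoC1 and rpoC2, were at least 2-fold lower than on every other array, and rpoA and matK were not. The value of rpoB there lay below the floor.

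rpoA (probe set 244978_at, ArthCp055) encodes the alpha subunit, on which the bacterial-type core assembles. It had signals of 3969 and 7137 on KO-nudx19 replicates 1 and 2, against 3312 and 3506 on wild-type replicates 1 and 2. Both KO-nudx19 arrays lay above both wild-type arrays, and KO-nudx19 replicate 2 was the highest array by a wide margin. The means were 5553 ± 2240 in KO-nudx19 and 3409 ± 138 in wild type (SD, n = 2 each). The log2 difference, KO-nudx19 minus wild type, was 0.64 (95% interval −0.17 to 1.46, limma adjusted p = 1.00). Within the arrays numbered 1 this difference was 0.26, and within those numbered 2 it was 1.03.

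rpoB (244999_at, ArthCp014) encodes the beta subunit. Its signals were 28.7 and 16.5 on KO-nudx19 replicates 1 and 2, against 43.3 and 2.23 on wild-type replicates 1 and 2. The genotypes overlapped, and signals this near the floor carry no order. With a mean of 22.7 over all arrays rpoB lay below the mean signal of 38.2 that a probe set needed to enter the test, and its lowest value lay below the floor of 8.92 applied before log2 was taken. Its log2 difference of 0.15 is therefore given with no test.

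rpoC1 (244998_at, ArthCp013), the gene of the beta' subunit, had 1365 and 757 on KO-nudx19 replicates 1 and 2, against 1862 and 370 on wild-type replicates 1 and 2. Both KO-nudx19 arrays lay inside the range of the wild-type arrays. The means were 1061 ± 430 in KO-nudx19 and 1116 ± 1054 in wild type (SD, n = 2 each), and the log2 difference was 0.29 (95% interval −1.56 to 2.14). rpoC1 lay just inside the 2-fold limit on wild-type replicate 2, at 2.04-fold below the next array.

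rpoC2 (244997_at, ArthCp012), the gene of the beta'' subunit, had 376 and 333 on KO-nudx19 replicates 1 and 2, against 453 and 55.4 on wild-type replicates 1 and 2. The other arrays lay within 1.36-fold of each other, and wild-type replicate 2 was 6.01-fold below the lowest of them. The log2 difference was 1.16 (95% interval −1.08 to 3.40). From KO-nudx19 replicate 1 to KO-nudx19 replicate 2 the log2 signal differed by −0.18 for rpoC2 and by −0.85 for rpoC1. Each value compares 1 array with 1 array, and the gap between the genes was not tested.

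matK (245048_at, ArthCp003) encodes the maturase of group II introns and lies inside the intron of trnK. It had 3026 and 5090 on KO-nudx19 replicates 1 and 2, against 3673 and 2529 on wild-type replicates 1 and 2. The genotypes overlapped, with the highest value on KO-nudx19 replicate 2 and the lowest on wild-type replicate 2. The range from highest to lowest was 2.01-fold, the narrowest of the 7 members. Its log2 difference was 0.36 (95% interval −0.49 to 1.22), with −0.28 within number 1 and 1.01 within number 2.

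rpl20 (244970_at, ArthCp045), whose product is a large-subunit ribosomal protein, had 477 and 261 on KO-nudx19 replicates 1 and 2, against 703 and 25.6 on wild-type replicates 1 and 2. Both extremes were wild-type arrays, 27.5-fold apart, and without wild-type replicate 2 the range over the remaining arrays was 2.70-fold. The log2 difference of 1.40 had a 95% interval of −2.11 to 4.91.

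accD (245016_at, ArthCp031), the only plastid gene of fatty acid synthesis, had 1085 and 527 on KO-nudx19 replicates 1 and 2, against 1055 and 51.0 on wild-type replicates 1 and 2. The arrays numbered 1 nearly coincided, with a log2 difference of 0.04, and wild-type replicate 2 was 10.3-fold below the next array. The means were 806 ± 394 in KO-nudx19 and 553 ± 710 in wild type (SD, n = 2 each). The log2 difference over all arrays was 1.71 (95% interval −1.54 to 4.95, limma adjusted p = 1.00).

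**Figure D1:**
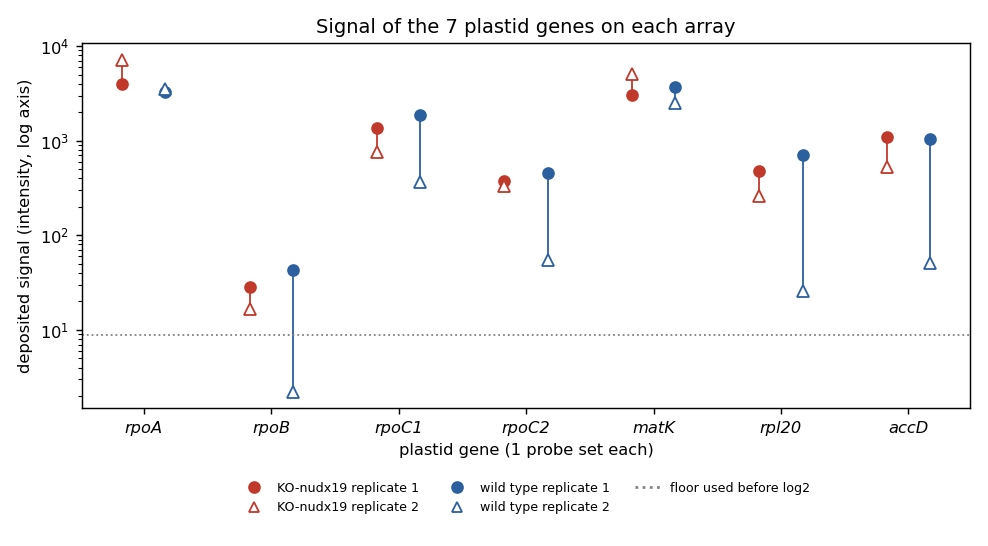
Deposited signal (intensity, log axis) of the 7 plastid genes on each array, with KO-nudx19 left of wild type, filled circles for replicate 1, open triangles for replicate 2, lines joining the replicates of a genotype and a dotted line at the floor of 8.92. Wild-type replicate 2 lies far below the other arrays for rpoC2, rpl20 and accD, by less for rpoC1, under the floor line for rpoB, and close to wild-type replicate 1 for rpoA and matK.

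All 6 tested members had a log2 difference above 0, with a median of 0.90. Of the other plastid probe sets tested, 54 of 59 also lay above 0, with a median of 0.75. Over all 13648 probe sets tested the median was −0.00029 and 50.0% lay above 0. Of the 6 members 0 passed limma's test at an adjusted p of 0.05, against 0% of all probe sets tested; the unadjusted p was under 0.05 for 0.652% of all and for none of the members. With the replicate number as a block 0 members passed (lowest block adjusted p = 0.243, for accD), against 0.0147% of all probe sets, and 4 had an unadjusted p under 0.05, against 5.41% of all. Those 4 were accD, rpoA, rpoC2 and rpl20. Most of the other plastid probe sets tested also had such p-values (limma with the block), so they were not particular to the members. Examples are psbC (0.0012), ndhK (0.0085) and rbcL (0.019), while psbK (0.13) did not have one. Among the members only rpoA had arrays that did not overlap, 1 of 6. Of all tested probe sets 22.3% did so, 10.5% higher and 11.8% lower in KO-nudx19. The differences of the members came from the arrays numbered 2. For those numbered 1 the member median was −0.27 and the values ran from −0.56 (rpl20) to 0.26 (rpoA). For those numbered 2 the median was 1.81 and all 6 lay between 1.01 and 3.37. Without wild-type replicate 2 the median over the members was −0.42, and only rpoA (0.68) and matK (0.096) stayed above 0. An exact test with 2 against 2 arrays could not have gone below a two-sided p of 0.333.

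**Figure D2:**
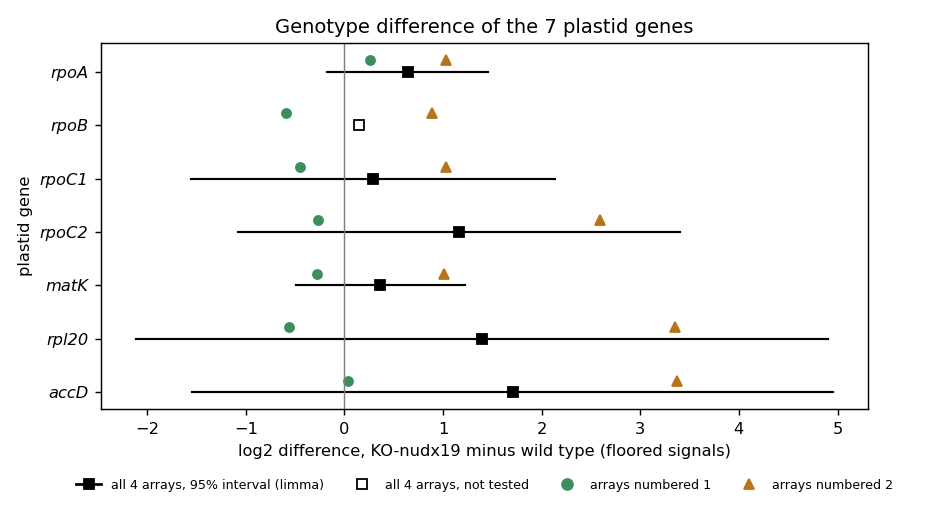
Log2 difference, KO-nudx19 minus wild type, of the 7 genes: squares show all 4 arrays with 95% intervals from limma (open square for rpoB, not tested), circles the arrays numbered 1 and triangles those numbered 2. Every interval includes 0, the circles lie between −0.59 and 0.26, and the triangles lie between 0.88 and 3.37.

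Between replicate numbers, limma called 4 of the 6 tested members, all lower on the arrays numbered 2. Each estimate averages the change over both genotypes, so it can rest mainly on wild-type replicate 2. On the log2 scale it was −2.71 for accD (limma adjusted p = 2.9e-04) and −2.83 for rpl20 (adjusted p = 0.000675). For rpoC2 it was −1.60 (adjusted p = 0.0108) and for rpoC1 −1.59 (adjusted p = 5.2e-04), with genotype in the model. The −1.60 of rpoC2 joins −0.18 in KO-nudx19 with −3.03 in wild type. The background was 6.32% of all tested probe sets lower on number 2, with 4.93% higher. Among the other plastid probe sets tested, 29 of 59 were called lower and 1 higher, so such calls were not particular to the members. In KO-nudx19, however, 34 of those 59 were higher on replicate 2 than on replicate 1, as were 2 of the 6 members. The calls of the members depended on the model. With robust fitting only rpoC1 passed (adjusted p = 0.0223), not accD (0.561), rpl20 (0.592) or rpoC2 (0.659). Without the filter on dim probe sets none of the members passed, and without a trend rpoC2 did not (0.0710). rpoA and matK did not pass, at 0.46 and 0.11.

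The size of this change differed between the genotypes, although with 1 array for each genotype and number that difference was not tested. In KO-nudx19, replicate 2 minus replicate 1 was −1.04 for accD, −0.87 for rpl20, −0.85 for rpoC1, −0.80 for rpoB and −0.18 for rpoC2, and in wild type it was −4.37 for accD, −4.78 for rpl20, −2.33 for rpoC1, −2.28 for rpoB at the floor and −3.03 for rpoC2. For these 5 the sign was negative in both genotypes, although the signals of rpoB lie too near the floor to carry an order. For matK the same difference was 0.75 in KO-nudx19 and −0.54 in wild type, and for rpoA it was 0.85 in KO-nudx19 and 0.08 in wild type. Among 65 tested plastid probe sets, 5 had a lower value than accD in KO-nudx19 and 5 in wild type, and 7 had a lower value than rpl20 in KO-nudx19 and 3 in wild type. The median over those 65 was 0.09 in KO-nudx19 and −2.26 in wild type.

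**Figure D3:**
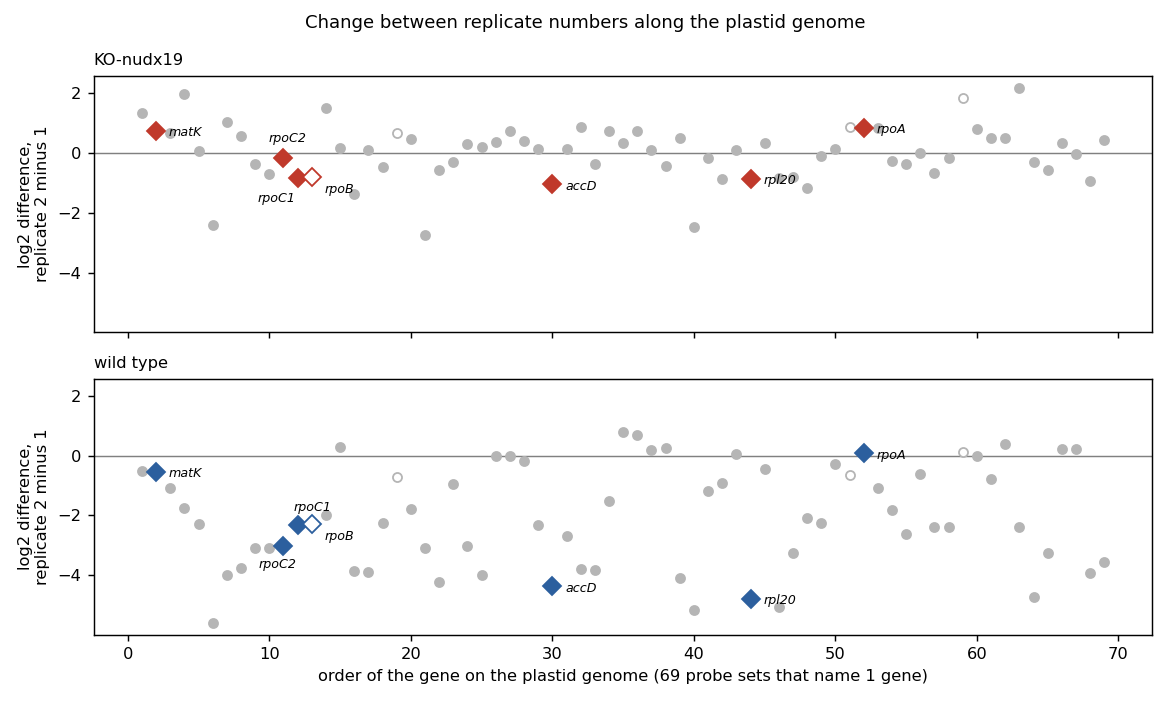
Log2 difference between replicate 2 and replicate 1 in KO-nudx19 (top) and wild type (bottom) for the 69 plastid probe sets that name 1 gene, in the order of the genes on the plastid genome. Diamonds mark the 7 members and grey circles the other genes (open where not tested); accD and rpl20 lie near the bottom in both panels, and rpoA and matK in the upper part.

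Some members paired up by profile. The distance used was the Euclidean distance between log2 signals over the 4 arrays, each gene centred on its mean. It was 0.44 between accD and rpl20 and 0.52 between rpoA and matK, while the median over all pairs of tested plastid probe sets was 1.75. rpoA was 2.11 from rpoC1 and 2.37 from rpoC2, which were 1.11 from each other. Distances to rpoB, such as 0.15 from rpoC1, rest on signals too near the floor to carry an order. The value of rpoB on wild-type replicate 2 is the floor. A calculation over the 3 other arrays was added after seeing the data. There rpoA was 1.75 from rpoC1, 1.12 from rpoC2 and 0.49 from matK. rpl20 and rpoC1 were 0.10 apart, and the median over tested plastid pairs was 0.88. Over those arrays rpoA and matK each lay farther than that median from accD, rpl20 and rpoC1. rpoC2 fell on neither side, at 0.75 from matK, 0.72 from rpl20, 0.64 from rpoC1 and 0.62 from accD.

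Position on the plastid genome was a mixed guide to the profile. rpoB, rpoC1 and rpoC2 are consecutive genes, and rps2, the ribosomal protein gene next to rpoC2, was 0.52 from rpoC2. It had 1879 and 1165 in KO-nudx19, against 2508 and 295 in wild type. matK lies between psbA and rps16, and it was 0.53 from psbA, the gene of the photosystem II reaction centre protein D1, and 0.39 from rps16. psbA had 1808 and 4619 in KO-nudx19 and 2155 and 1503 in wild type, again highest on KO-nudx19 replicate 2. The opposite case was rpl20, which was 3.72 from its neighbour rps18 (1.16 without wild-type replicate 2), a ribosomal protein gene with 745 and 792 in KO-nudx19 and 691 and 724 in wild type. accD was 1.86 from rbcL, the large subunit gene of Rubisco, and 1.57 from psaI, a photosystem I subunit gene. rpoA was 0.91 from petD, which was too dim to be tested. On the other side of rpoB, petN, a cytochrome b6f subunit gene, was 2.27 away, a distance that rests on rpoB signals near the floor.

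**Figure D4:**
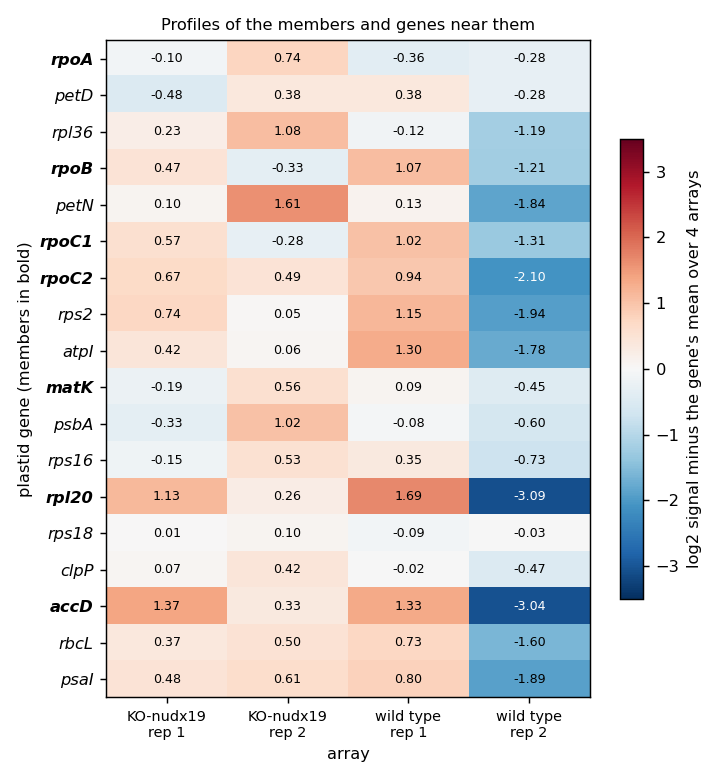
Log2 signal minus each gene's mean over the 4 arrays, for the members (bold) and plastid genes near them, with KO-nudx19 arrays left of wild-type arrays. rpl20 and accD reach −3.09 and −3.04 on wild-type replicate 2, rpoA is highest on KO-nudx19 replicate 2 (0.74), and rps18 stays within 0.10 of its mean on all arrays.

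By the same distance, the 5 genes most like the members' median profile among 7354 named and tested probe sets were all plastid-encoded. They were rpl16 (distance 0.27), rps19 (0.33), psaI (0.35), psbH (0.35) and rbcL (0.38). For single members, rpoA was nearest to rpl32 (0.077), another plastid ribosomal protein gene, and rpoC2 to ndhG (0.33), a subunit gene of the plastid NADH dehydrogenase-like complex. accD and rpl20 were each other's nearest. The nearest to rpoC1 was TOPII, a nuclear topoisomerase gene (0.12), that to rpoB was AT4G38710 (0.13) and that to matK was AT5G49800 (0.082), all on nuclear chromosomes. The match of rpoB rests on signals near the floor, which carry no order. With 4 arrays such likeness describes these arrays only.

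Compared with other plastid genes, the members shared the low signal on wild-type replicate 2. Among tested probe sets, 4 of 6 members and 35 of 59 other plastid probe sets were at least 2-fold lower there than on each other array, against 0.894% of all tested probe sets. The median log2 difference between the genotypes was 0.90 for the members and 0.75 for the other plastid probe sets. It was 0.74 for photosystem genes, 0.70 for genes of ATP synthase, cytochrome b6f and Rubisco, and 1.09 for genes of the NDH complex. Without wild-type replicate 2 it was −0.42 for the members and −0.12 for the other plastid probe sets. The members differed in length from 354 bp (rpl20) to 4131 bp (rpoC2) in RefSeq, and across the 65 tested plastid genes length and the wild-type change from replicate 1 to replicate 2 had a Spearman rho of −0.14, a description across genes that share the same arrays. The mean signal on the 3 other arrays had a rho of 0.53 with that change over the same 65. Dimmer genes thus tended to fall more on the log2 scale from wild-type replicate 1 to replicate 2, though wild-type replicate 1 enters both measures.

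**Figure D5:**
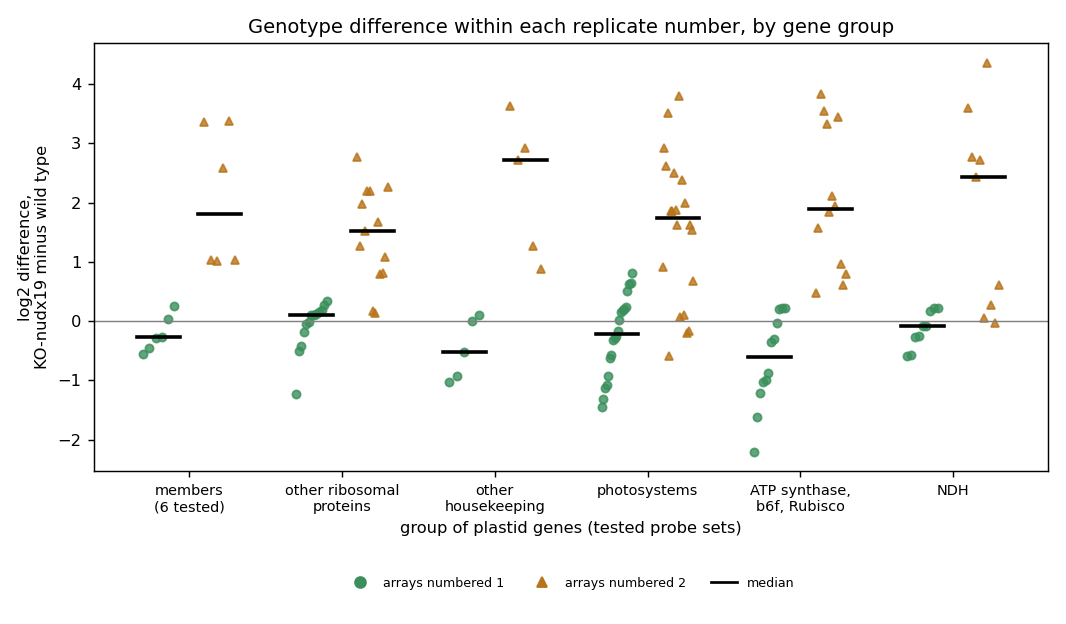
Log2 difference, KO-nudx19 minus wild type, within the arrays numbered 1 (circles) and within those numbered 2 (triangles) for tested plastid probe sets by gene group, with the median as a bar. The member medians are −0.27 and 1.81, and every group has its higher median in the arrays numbered 2.

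Few nuclear partners of these genes had a named probe set. None of 14 proteins associated with the plastid-encoded polymerase and none of 6 sigma factors had one. RPOTMP (AT5G15700), a phage-type polymerase, had 22.1 and 6.39 in KO-nudx19 and 39.6 and 7.18 in wild type and was too dim to be tested. For intron removal, the splicing factor genes CAF1 and CFM3A had log2 differences of −0.10 and −0.20. CFM3A had 220 and 117 in KO-nudx19, against 269 and 126 in wild type, and was lower on the arrays numbered 2 (log2 −1.01, limma adjusted p = 0.0087). For fatty acid synthesis, FATB, an acyl-ACP thioesterase gene, had 826 and 876 in KO-nudx19, against 784 and 692 in wild type, and FATA had 81.1 and 129, against 101 and 122. Of 33 nuclear genes of plastid ribosomal proteins 9 were tested, with 2 log2 differences above 0 and 7 below and a median of −0.14, while the median over all tested probe sets was −0.00029. Both KO-nudx19 arrays lay above both wild-type arrays for RPL3 (AT2G43030) alone among the 9, with 7189 and 8215 in KO-nudx19, against 6963 and 6852 in wild type; 10.5% of all tested probe sets were higher without overlap. None of the 13 tested genes of these nuclear lists passed between the genotypes. None of the 9 ribosomal protein genes was called lower on the arrays numbered 2, and their median difference between replicate 2 and replicate 1 was −0.029 in KO-nudx19 and 0.13 in wild type.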

How the data were processed

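The authors' deposited values were intensity signals, 1 per probe set and array, on a linear scale. GCOS was used, per the submitters' processing notes. Its version and background correction, and the target of its scaling, are not stated by those notes or the labels. Probe sets were named through the platform annotation with symbols updated from RefSeq (TAIR10.1). Of 22810 probe sets, 13513 named 1 gene, of which 13436 matched RefSeq and 77 kept the table's symbol; 503 named several. Before log2 was taken, a floor was set at the 20th percentile of the table (8.92). The 64 control probe sets were dropped, as were probe sets whose mean signal fell under the 40th percentile (38.2). The 13648 kept for testing held 6 of the 7 members. Genotypes were compared with limma 3.58.1 (R 4.3.3; lmFit and trended eBayes), with Benjamini-Hochberg adjustment over all tested probe sets. Values under the floor were raised to it, which narrows the range between arrays for such probe sets.

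The members and gene lists were chosen with earlier results of these data known, so lists are given as counts and medians, with no p adjusted over a list alone. The rule for named genes took all members, up to 4 genes of each list whose arrays did not overlap, genome neighbours of the members, and the nearest profiles. RefSeq served for names, lengths and gene order, and no coordinates are printed, since the values name no genome build. Values are also given within each replicate number, because the poly(A) controls separated the numbers. Alternatives covered normalization, floor, pseudocount, filter, moderation, the replicate block and leaving out each array. The code was tested on simulated data. Figures were drawn with matplotlib 3.10.9.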

Additional observations from a re-analysis of the deposited data

How the results depend on the processing

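The count of probe sets passing between the genotypes was 0 (89 at an unadjusted p under 0.05) and became 2 with the replicate block, 93 with quantile normalization and the replicate block together, and 0 to 10 on leaving out single arrays, the 10 without wild-type replicate 1. Deviations from the genotype means correlated at 0.553 between arrays of the same number, over probe sets, which with 2 arrays per genotype does not show that the numbers pair samples. Log2 signals correlated at 0.9721 between the arrays numbered 1 and at 0.9649 between those numbered 2. Within a genotype they correlated at 0.9257 in KO-nudx19 and 0.9275 in wild type. With the block alone no member's call changed. With quantile normalization and the block, accD (log2 difference 1.68, adjusted p = 3.8e-09), rpl20 (1.41, 1.1e-05) and rpoC2 (1.14, 0.00145) passed, while on the scale of the report their differences within the arrays numbered 1 were 0.04, −0.56 and −0.27. Without wild-type replicate 1, accD (3.89) and rpl20 (3.79) passed, both at adjusted p = 0.0352; wild type is then 1 array, replicate 2, assumed to vary like the KO-nudx19 arrays, which alone give the spread.

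The member median ranged from 0.83 to 0.90 over other normalizations, floors, fits and the stricter filter. Without a filter it was 0.64, over 7 members, since rpoB then entered at its floored values. On leaving out single arrays the member median ranged from −0.42 to 2.07. It turned to −0.42 without wild-type replicate 2, where accD stood at −0.48, rpl20 at −0.995, rpoB at −0.99, rpoC1 at −0.87 and rpoC2 at −0.36. Other reversals were rpoB at −0.11 with the floor at the 40th percentile, rpoB at −0.26 and rpoC1 at −0.13 without KO-nudx19 replicate 1, and matK at −0.010 without KO-nudx19 replicate 2. On leaving out single arrays the values reached at most 0.74 for matK (without KO-nudx19 replicate 1) and, without wild-type replicate 1, 1.29 for rpoB, 1.46 for rpoC1 and 2.68 for rpoC2. The difference of rpoA ranged from 0.22 to 1.07 over all 15 alternatives run. As both its KO-nudx19 arrays lay above both wild-type arrays, leaving out a single array could not reverse its direction. Among the other settings only a change of normalization could have done so. Apart from the arrays left out, the cause was not tested. Between replicate numbers 1535 probe sets passed, 1012 with the filter at the 60th percentile (9099 tested) and 0 without a filter (2705 at an unadjusted p under 0.05). With 2 arrays per genotype the median half-width of a 95% interval was 0.76 on the log2 scale, and signals near the floor, as for rpoB, carry no order.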

Other observations

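Among the other plastid-encoded ribosomal protein genes, 13 of 14 were bright enough to be tested. All 13 had log2 differences above 0, with a median of 0.67 (0.11 for the arrays numbered 1, 1.53 for those numbered 2, −0.11 without wild-type replicate 2), and none passed limma's test. Arrays did not overlap for 4 of them, all higher in KO-nudx19, against 12 of 59 plastid probe sets other than the members and 10.5% of all tested probe sets (22.3% without overlap in either direction). rpl36 had 2693 and 4855 in KO-nudx19, against 2117 and 1008 in wild type, and rpl32 had 2906 and 5059, against 2414 and 2401. rps3 had 4728 and 4777 in KO-nudx19 and 4243 and 2751 in wild type. rps18 varied least of the 4. Their products are parts of the same ribosome as that of rpl20, whose KO-nudx19 arrays lay inside the range of the wild-type arrays. clpP, the plastid protease subunit gene near rpl20, had 6369 and 8075 in KO-nudx19, against 5957 and 4385 in wild type, a log2 difference of 0.49 (SE 0.28, limma adjusted p = 1.00).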
